A study of Mus musculus with 12 samples.

Results

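The circadian clock of mouse liver was followed through 10 of its genes in 12 RNA libraries: Dbp, Tef, Nr1d1, Nr1d2, Per1, Per2, Per3, Cry1, Npas2 and Bhlhe41. The 10 genes were chosen by symbol as clock genes and direct clock outputs of opposite phases, and all 10 are among the 13554 genes of the deposited table. The choice was made with earlier results of these data known. Counts of the 10 set beside the share of all genes are therefore descriptions and not a test of the set. Each of them also reached a normalised value of 10 in 3 or more libraries, the filter that left 12570 genes for testing. The RNA came from livers of male C57Bl/6J mice, wild type, taken 3 days after an operation that removed part of the liver (partial hepatectomy). There are 3 libraries in each of 4 groups: PH80_HC (80% resection in an arm named HC), PH80_G+H (80% resection with G-CSF and HNF4a), PH80 (80% resection alone) and PH70 (70% resection alone). The 4 groups share strain, sex, genotype and postoperative day. The sources used here give neither what HC stands for nor how much G-CSF and HNF4a was given, how and when. They do not give the age of the mice or the hour at which livers were taken either, so a difference in that hour and a difference between groups cannot be told apart. Nothing in the labels ties each library to an animal of its own, so a p-value here stands for spread between libraries that may be technical.

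In the clock, the transcription factors BMAL1 and CLOCK, or NPAS2 in place of CLOCK, bind E-box sequences and activate the Per, Cry, Nr1d, Dbp, Tef and Bhlhe41 genes. PER and CRY proteins inhibit that activation, and the REV-ERB proteins encoded by Nr1d1 and Nr1d2 repress Arntl (the gene of BMAL1), Npas2 and Cry1 through ROR elements. DBP and TEF bind D-box sequences and drive daily rhythms of liver metabolism. In liver the transcripts of Dbp, Tef, Nr1d1 and Nr1d2 are known to peak at about the opposite time of day to Npas2.

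RefSeq promoter windows, the 250 bases before the annotated start on GRCm38.p6, were matched for 9 of the 10 genes. The E-box CACGTG lay in the window of 4 of these 9 genes (Tef, Per1, Cry1 and Bhlhe41), against 6.86% of all genes with a window. The related E-prime box CACGTT was found on either strand for Nr1d1 and Cry1, against 4.5% of genes, and the D-box TTANNTAA for Tef and Per3, against 6.3%. The ROR element core TAGGTCA was in the window of 0 of the 9, against 2.55% of genes, and no letters outside these windows were searched. Both strands were searched and no motif overlapped another. Printed here are the 3 windows that hold more than 1 match and that of Bhlhe41, the gene of the 10 with the largest fitted change in PH80 against PH70. Capitals mark the matches, each sequence is 5' to 3' on the strand of its gene, and positions give the first base of a match, counted back from the base before the start. A match is a description of letters and not evidence of binding.
Tef (chr15:81802423-81802672, plus strand, D-box at -174 and E-box at -127): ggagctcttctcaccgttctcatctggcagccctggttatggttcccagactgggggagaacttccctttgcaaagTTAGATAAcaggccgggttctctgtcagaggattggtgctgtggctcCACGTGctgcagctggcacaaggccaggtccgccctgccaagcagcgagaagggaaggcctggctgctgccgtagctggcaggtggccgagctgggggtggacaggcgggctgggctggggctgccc
Per3 (chr4:151044666-151044915, minus strand, D-boxes at -205 and -158): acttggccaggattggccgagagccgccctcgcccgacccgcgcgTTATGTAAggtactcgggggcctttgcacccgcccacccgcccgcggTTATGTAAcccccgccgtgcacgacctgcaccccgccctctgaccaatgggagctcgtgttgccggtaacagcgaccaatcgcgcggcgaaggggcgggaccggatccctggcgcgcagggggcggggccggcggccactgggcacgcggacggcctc
Cry1 (chr10:85185055-85185304, minus strand, E-prime box at -79 and E-box at -60): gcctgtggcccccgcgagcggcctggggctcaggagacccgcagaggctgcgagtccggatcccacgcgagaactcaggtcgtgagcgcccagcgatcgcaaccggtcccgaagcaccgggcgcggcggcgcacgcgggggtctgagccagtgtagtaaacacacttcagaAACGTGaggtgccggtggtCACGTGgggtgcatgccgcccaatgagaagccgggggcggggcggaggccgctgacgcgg
Bhlhe41 (chr6:145865421-145865670, minus strand, E-box at -153): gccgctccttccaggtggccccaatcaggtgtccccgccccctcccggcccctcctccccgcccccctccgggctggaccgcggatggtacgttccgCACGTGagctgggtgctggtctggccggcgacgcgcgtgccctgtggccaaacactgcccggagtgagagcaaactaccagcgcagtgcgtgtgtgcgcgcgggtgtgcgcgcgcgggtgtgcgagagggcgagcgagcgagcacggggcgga

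The libraries held 9.72 M to 44.5 M recovered reads, so genes with few reads are less precisely measured in the shallow libraries. Values below are normalised reads, that is, counts divided by 1 size factor per library. They compare libraries for 1 gene, while levels of different genes are compared per kb of the longest annotated transcript. Differences are on the log2(value + 1) scale from limma, with Benjamini-Hochberg adjustment over the 12570 genes, and a gene is called past an adjusted p of 0.05. A fold is always the fitted one, taken from this log2 difference, and not the ratio of the means printed beside it. Of 7 hepatocyte markers, 6 are in the table, and their summed value was 2.70e+06 to 3.95e+06 in PH80_HC, 2.49e+06 to 3.09e+06 in PH80_G+H, 1.92e+06 to 2.37e+06 in PH80 and 2.93e+06 to 3.16e+06 in PH70. None of the 6 was called in any comparison by limma. In PH80 against PH70 an unadjusted p under 0.05 was reached by 0, while edgeR called 0 and DESeq2 1. All 6 were fitted lower in PH80 than in PH70 and higher in PH80_HC than in PH80. Alb, the albumin gene and the largest part of the sum, was 1.48e+06 to 1.86e+06 in PH80 and 2.32e+06 to 2.58e+06 in PH70. Its fitted error was wide (log2 -0.61 ± 0.79 SE, limma adjusted p = 0.688), so the missing call does not show equal levels. That error is moderated by limma along an intensity trend and is not the spread of the Alb libraries alone. The Alb mean was 1.63e+06 ± 2.00e+05 in PH80 and 2.48e+06 ± 1.44e+05 in PH70 (SD), and the libraries did not overlap. In bulk liver, fewer cells of a type and less RNA per cell cannot be told apart.

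**Figure D1:**
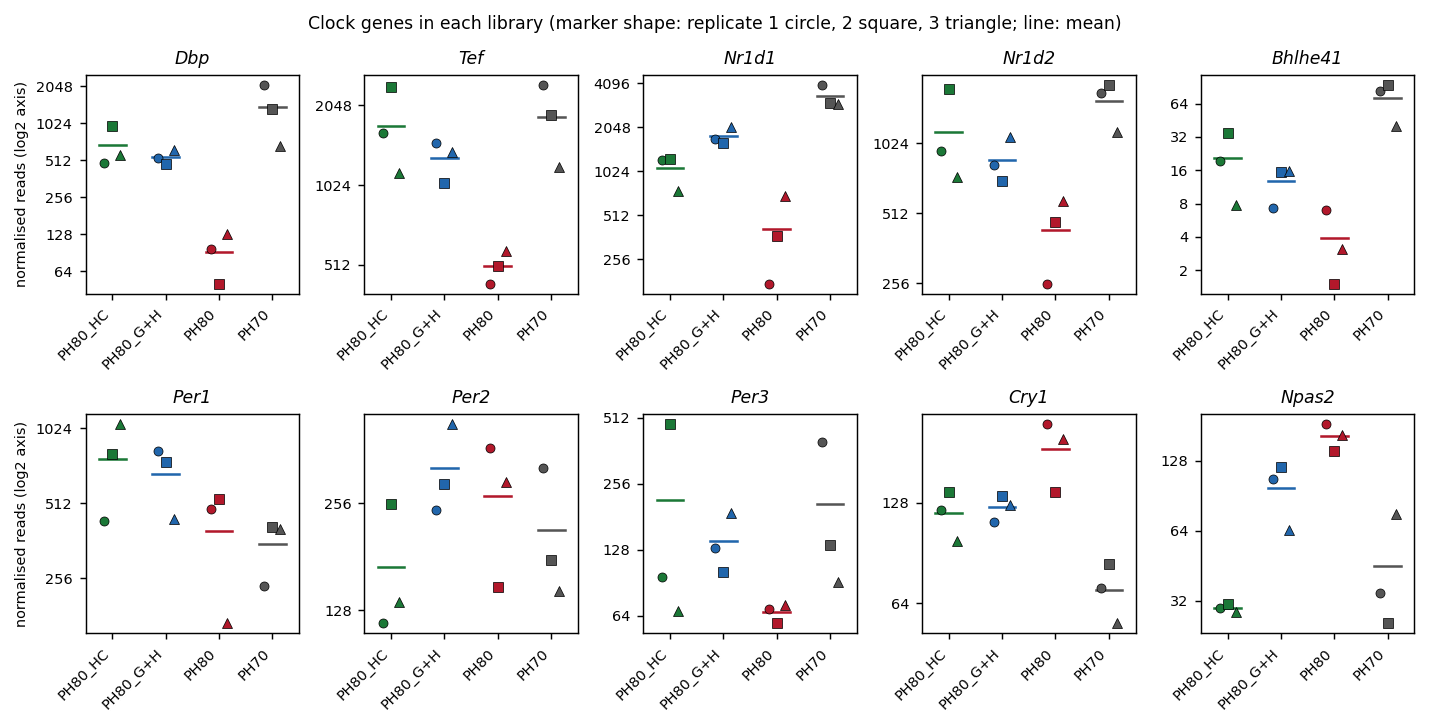
Normalised value (log axis) of each of the 10 clock genes, 1 point per library, with the group mean as a bar, in PH80_HC, PH80_G+H, PH80 and PH70 from left to right (n = 3 each). For Dbp, Tef, Nr1d1, Nr1d2 and Bhlhe41 the 3 PH80 points lie below all points of the other groups, and for Npas2 and Cry1 the PH80 means of 164 and 186 are the highest of the 4 groups. For Bhlhe41 the gap between PH80 and the arms rests on few reads and is not resolved.

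PH80 livers had far less Dbp, Tef, Nr1d1, Nr1d2 and Bhlhe41 mRNA than PH70 livers and more Npas2 and Cry1 mRNA. Of the 10 clock genes, 7 were called in PH80 against PH70, 2 higher and 5 lower, where 3.82% of all tested genes were called (1.09% higher and 2.73% lower). The split of all called genes, 137 higher and 343 lower, depended on scaling and was 127 higher and 110 lower when every library was given the same total. The same 7 clock genes were called in the same directions under that scaling. The libraries of PH80 and PH70 did not overlap for 8 of the 10, the eighth being Per3, against 27.0% of all tested genes. The same held for 6 of the 10 in PH80_HC against PH80 (15.6% of all) and 8 in PH80_G+H against PH80 (16.9%). Both counts include Bhlhe41, whose gap there rests on few reads. The median log2 difference over the 10 was -1.58, against 0.01 over all tested genes. By fitted difference, both arms (PH80_HC and PH80_G+H) were on the PH70 side of PH80 for Dbp, Tef, Nr1d1, Nr1d2, Bhlhe41, Npas2 and Cry1. The degree differed, and for Cry1 the PH80_HC libraries overlapped those of PH80. In PH80_HC against PH80, 3 of the 10 were called, against 0.891% of all tested genes: Dbp and Tef were higher (0.652% of all) and Npas2 was lower (0.239%). In PH80_G+H against PH80, 2 were called, Dbp and Nr1d1, both higher, against 0.119% of all tested genes in either direction and 0.111% higher. Giving every library the same total turned the split of all called genes in PH80_HC against PH80 to 17 higher and 55 lower, against 82 higher and 30 lower as deposited. Under that scaling Dbp and Npas2 stayed called there and Tef did not (limma adjusted p = 0.0761). The comparisons with PH80 all use the same 3 PH80 libraries, so they are not independent of each other. The moderated F test among the 4 groups called 7 of the 10, all but the 3 Per genes, against 1.85% of all tested genes.

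Dbp and Tef encode D-box-binding activators of the PAR bZIP family and are clock outputs. Dbp (chr7:45705088-45710203, plus strand, GENCODE M21 on GRCm38, as for all genes named here) had 488, 977 and 562 normalised reads in PH80_HC, 530, 479 and 615 in PH80_G+H, 97.0, 50.1 and 129 in PH80, and 2113, 1340 and 671 in PH70. Every PH80 library was below every other library, and PH70 replicate 3 lay within the range of PH80_HC. The Dbp mean was 92.1 ± 39.8 in PH80 and 1375 ± 721 in PH70 (SD, n = 3 each), with a fitted log2 difference of -3.84 ± 0.40 (SE) or 14.3-fold lower (limma, adjusted p = 0.000695), which ranked 4 of all tested genes by p. PH80_HC livers averaged 676 ± 264, with a fitted level 7.45-fold higher than in PH80 (log2 2.90, 95% interval 2.03 to 3.77, limma adjusted p = 0.0118), a call lost when only the 2 groups were fitted (adjusted p = 0.0548). PH80_G+H livers averaged 541 ± 68.4, with a fitted level 6.22-fold higher than in PH80 (log2 2.64, interval 1.77 to 3.51, limma adjusted p = 0.0243). That last call was lost in 9 of 24 alternative fits, among them every fit without 1 of the PH80_G+H libraries (adjusted p = 0.0886 to 0.177), while the sign held in all 24. Between the arms the Dbp difference was 0.26 (interval -0.61 to 1.13, limma adjusted p = 0.789). Against PH70, the difference was -0.94 for PH80_HC (interval -1.81 to -0.07, adjusted p = 0.294) and -1.20 for PH80_G+H (adjusted p = 0.589), with all PH80_G+H libraries below those of PH70 and neither called by limma.

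Tef (chr15:81802421-81826863, plus strand) had 1612, 2402 and 1134 normalised reads in PH80_HC, 1479, 1043 and 1370 in PH80_G+H, 433, 506 and 578 in PH80, and 2457, 1879 and 1197 in PH70. The PH80 libraries were again the lowest of the 12, and the other 3 groups overlapped. Tef was 3.51-fold lower in PH80 than in PH70 (log2 -1.81 ± 0.29, limma adjusted p = 0.00656), a smaller change than that of Dbp. It was 3.25-fold higher in PH80_HC than in PH80 (log2 1.70, interval 1.08 to 2.33, limma adjusted p = 0.0213), a call lost in 5 of 24 alternatives, including those without PH80 replicate 1 (adjusted p = 0.0727), PH80_HC replicate 1 (0.0562) or PH80_HC replicate 2 (0.0513). In PH80_G+H the 2.55-fold higher level did not pass (log2 1.35, interval 0.73 to 1.98, limma adjusted p = 0.119), although all 3 libraries were above those of PH80. It passed by DESeq2 (adjusted p = 0.00343), with only the 2 groups fitted (0.0495) and without the library of steepest length trend in each group (0.0486). The fitted difference between PH80_HC and PH80_G+H was 0.35 (interval -0.27 to 0.98, limma adjusted p = 0.589). Hlf, the third PAR bZIP gene and no member of the 10, averaged 426 ± 85.7 in PH80_HC, 446 ± 20.8 in PH80_G+H, 264 ± 36.8 in PH80 and 638 ± 113 in PH70. It fell in PH80 against PH70 (log2 -1.26, limma adjusted p = 0.00619) and did not pass in either arm against PH80 (0.68, adjusted p = 0.128, in PH80_HC; 0.76, adjusted p = 0.185, in PH80_G+H).

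Nr1d1 and Nr1d2 encode REV-ERB alpha and REV-ERB beta, heme-binding nuclear receptors that repress transcription. Nr1d1 (chr11:98767932-98775333, minus strand) had 1229, 1249 and 756 normalised reads in PH80_HC, 1698, 1592 and 2057 in PH80_G+H, 173, 369 and 692 in PH80, and 4027, 3023 and 2955 in PH70. The 4 groups did not overlap at all: PH80 was lowest, then PH80_HC, PH80_G+H and PH70. The means were 411 ± 262 in PH80 and 3335 ± 600 in PH70, and the fitted level was 9.32-fold lower in PH80 (log2 -3.22 ± 0.38, limma adjusted p = 0.00131). In PH80_G+H, Nr1d1 averaged 1782 ± 243 and was higher than in PH80 (log2 2.32, interval 1.51 to 3.13, limma adjusted p = 0.0310). This call was lost in 11 of 24 alternatives, edgeR included (adjusted p = 0.0587) and every fit without 1 PH80_G+H library (0.0909 to 0.210). In PH80_HC the mean was 1078 ± 279, and the fitted level, 2.97-fold above PH80, did not pass (log2 1.57, interval 0.76 to 2.38, limma adjusted p = 0.0735), but did so by DESeq2 (adjusted p = 0.0108) and without PH80 replicate 3, the highest PH80 library (log2 2.05, adjusted p = 0.0183). Against PH70 the PH80_HC level was 3.14-fold lower (log2 -1.65, interval -2.46 to -0.84, limma adjusted p = 0.105), and this passed by DESeq2 (0.00266), with only the 2 groups fitted (0.0249), and without PH80 replicate 1 (0.0326) or PH80 replicate 3 (0.0386). The difference of PH80_HC against PH80_G+H was -0.75 (interval -1.56 to 0.06, limma adjusted p = 0.393).

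Nr1d2 (chr14:18204054-18239127, minus strand) moved in the same direction with smaller differences. Its values were 952, 1758 and 729 in PH80_HC, 826, 702 and 1084 in PH80_G+H, 253, 471 and 579 in PH80, and 1690, 1832 and 1144 in PH70. PH80 was below each other group, and PH80_HC overlapped both PH80_G+H and PH70. The means were 434 ± 166 in PH80 and 1555 ± 363 in PH70, and the fitted level was 3.71-fold lower in PH80 (log2 -1.89 ± 0.35, limma adjusted p = 0.0122). Without PH70 replicate 2 (log2 -1.76, adjusted p = 0.0720) or PH80 replicate 1 (log2 -1.54, adjusted p = 0.0511) the call was lost. Neither PH80_HC (log2 1.38 against PH80, interval 0.64 to 2.12, limma adjusted p = 0.0876) nor PH80_G+H (1.06, interval 0.32 to 1.80, adjusted p = 0.277) passed by limma. The PH80_HC difference passed by DESeq2 (adjusted p = 0.00608) and with length and GC trends removed (0.0277).

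The exons of Nr1d1 and Dbp overlap those of genes on the opposite strand, and the sources used here do not say whether reads were counted by strand. Nr1d1 shares 263 of its 3077 exon bases with Thra, a thyroid hormone receptor gene, which averaged 166 in PH80_HC, 231 in PH80_G+H, 222 in PH80 and 278 in PH70 and was not called in PH80 against PH70 (log2 -0.32, limma adjusted p = 0.349). Dbp shares 539 of its 2993 exon bases with Sphk2, a sphingosine kinase gene, which averaged 1186 in PH80_HC, 1096 in PH80_G+H, 758 in PH80 and 1388 in PH70. Sphk2 fell in PH80 against PH70 (log2 -0.88, limma adjusted p = 0.0182), so without strand its reads and those of Dbp cannot be told apart in the shared bases. Tef and Bhlhe41 share 193 and 1280 exon bases with annotated RNAs on the opposite strand, Gm17597 and Gm43909, which are not analysed here.

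**Figure D2:**
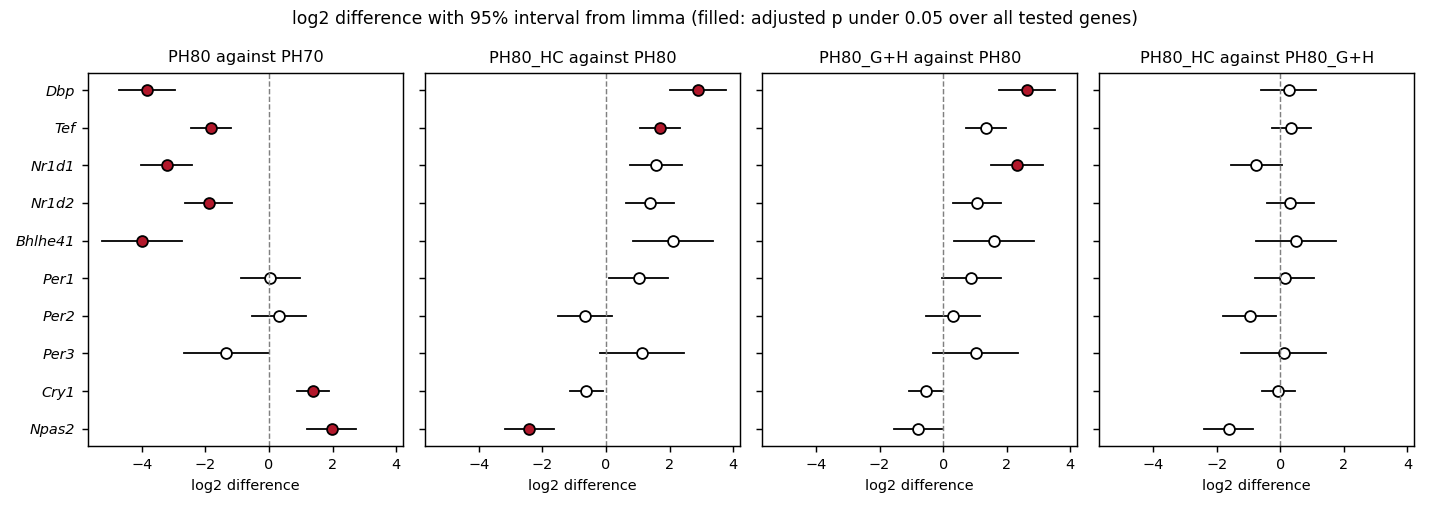
Fitted log2 difference with its 95% interval (limma, 3 libraries per group) for each of the 10 genes in PH80 against PH70, PH80_HC against PH80, PH80_G+H against PH80 and PH80_HC against PH80_G+H. Filled points passed an adjusted p of 0.05: 7 genes in PH80 against PH70, 3 in PH80_HC against PH80, 2 in PH80_G+H against PH80 and 0 in the last panel.

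Bhlhe41 encodes DEC2, a basic helix-loop-helix repressor that competes at E-boxes. It was the least abundant of the 10 per kb in PH80_HC, PH80_G+H and PH80, and its normalised values (chr6:145858243-145865558, minus strand) were 19.4, 34.7 and 7.78 in PH80_HC, 7.36, 15.3 and 15.6 in PH80_G+H, 7.03, 1.50 and 3.12 in PH80, and 82.3, 95.1 and 40.1 in PH70. These rest on few reads: 24, 66 and 6 in PH80_HC, 4, 31 and 23 in PH80_G+H, 5, 2 and 3 in PH80, and 136, 52 and 18 in PH70. All PH80 libraries were the lowest and all PH70 libraries the highest of the 12. The gap between PH80 and the arms is not resolved: it lies between 7.03 (5 reads) in PH80 and 7.36 (4 reads) in PH80_G+H or 7.78 (6 reads) in PH80_HC. The PH80 level was 15.9-fold lower than that of PH70 (log2 -3.99 ± 0.59, interval -5.24 to -2.73, limma adjusted p = 0.00446), the largest fitted change among the 10. The 2.09 log2 difference of PH80_HC against PH80 (interval 0.83 to 3.35, limma adjusted p = 0.110) and the 1.59 of PH80_G+H against PH80 (adjusted p = 0.335) did not pass, though PH80_HC did by DESeq2 (log2 2.59, adjusted p = 0.00989) and without the library of steepest length trend in each group (log2 3.07, adjusted p = 0.0406). Its paralog Bhlhe40, the gene of DEC1 and no member of the 10, averaged 1468 ± 603 in PH80_HC, 2453 ± 709 in PH80_G+H, 1770 ± 734 in PH80 and 4533 ± 1166 in PH70. Bhlhe40 fell in PH80 against PH70 (log2 -1.40, limma adjusted p = 0.0454), and PH80_HC libraries overlapped PH80 (log2 -0.28, adjusted p = 0.795).

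Npas2, which encodes the partner of BMAL1 that can stand in for CLOCK, showed the opposite pattern. Npas2 (chr1:39193731-39363236, plus strand) had 30.0, 31.1 and 28.5 normalised reads in PH80_HC, 107, 121 and 64.6 in PH80_G+H, 184, 141 and 166 in PH80, and 34.5, 25.6 and 75.8 in PH70. PH80 libraries were the highest of all, PH80_G+H lay below them and overlapped PH70, and PH80_HC held 3 near-equal values within the range of PH70. The mean was 164 ± 21.5 in PH80 and 45.3 ± 26.8 in PH70, and the fitted level was 3.93-fold higher in PH80 (log2 1.97 ± 0.35, limma adjusted p = 0.0109). Without PH70 replicate 2 (log2 1.65, adjusted p = 0.0649) or PH80 replicate 1 (log2 1.88, adjusted p = 0.0511) this call was lost. PH80_HC averaged 29.9 ± 1.26, with a fitted level 5.31-fold lower than in PH80 (log2 -2.41, interval -3.17 to -1.65, limma adjusted p = 0.0142), called in all 24 alternatives. PH80_G+H averaged 97.3 ± 29.2 and did not pass against PH80 (log2 -0.78, interval -1.55 to -0.02, limma adjusted p = 0.461). PH80_HC was 3.08-fold lower than PH80_G+H with no overlap (log2 -1.62, interval -2.39 to -0.86), which missed the threshold by limma (adjusted p = 0.0802) and passed by DESeq2 (adjusted p = 0.000705) and without PH70 replicate 3 (0.0391). In reads, Npas2 had 37, 59 and 22 in PH80_HC, 58, 244 and 95 in PH80_G+H, 131, 189 and 159 in PH80, and 57, 14 and 34 in PH70.

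Cry1 encodes a cryptochrome, a repressor of BMAL1 complexes whose transcript peaks later than those of the other repressors. Cry1 (chr10:85131700-85185064, minus strand) had 122, 138 and 98.6 normalised reads in PH80_HC, 112, 135 and 126 in PH80_G+H, 221, 138 and 199 in PH80, and 71.4, 84.1 and 55.7 in PH70. All 9 libraries after the larger resection were above the 3 PH70 libraries. Cry1 was 2.60-fold higher in PH80 than in PH70 (186 ± 42.7 and 70.4 ± 14.2, log2 1.38 ± 0.24, limma adjusted p = 0.00909). The call was lost without the library of steepest length trend in each group (log2 1.09, adjusted p = 0.0665). The arms were lower than PH80 by less than their call needed: -0.62 in PH80_HC (limma adjusted p = 0.256) and -0.56 in PH80_G+H (0.434), while they stood 0.76 and 0.83 above PH70 (adjusted p = 0.204 and 0.439).

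Its paralog Cry2, no member of the 10, went the other way: it averaged 481 in PH80_HC, 529 in PH80_G+H, 301 ± 23.0 in PH80 and 601 ± 143 in PH70, and fell in PH80 against PH70 (log2 -0.97, limma adjusted p = 0.0280).

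The Per genes encode the repressor partners of CRY proteins, and none of the 3 was called in any of the 6 comparisons, by limma or in any alternative fit. By limma 0 of the 3 passed among the 4 groups (adjusted p = 0.254 for Per1, 0.380 for Per2 and 0.444 for Per3). An unadjusted p under 0.05 was reached by Per1 among the 4 groups, in PH80_HC against PH80 and in each arm against PH70. Per2 reached it in PH80_HC against PH80_G+H and Per3 in PH80 against PH70. Per1 (chr11:69095217-69109960, plus strand), which also answers to glucocorticoid and cAMP, had 433, 806 and 1069 normalised reads in PH80_HC, 830, 752 and 443 in PH80_G+H, 487, 535 and 169 in PH80, and 240, 411 and 404 in PH70. PH80 overlapped every other group, and all libraries of both arms lay above those of PH70. The PH80 against PH70 difference was 0.05 (interval -0.88 to 0.98, limma adjusted p = 0.965) and took the other sign without PH70 replicate 1, PH80 replicate 1 or PH80 replicate 2 (-0.25 to -0.18). The arms' differences from PH70 were 1.07 for PH80_HC (limma adjusted p = 0.280) and 0.93 for PH80_G+H (adjusted p = 0.837).

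Per2 (chr1:91415982-91459324, minus strand) had 117, 254 and 135 normalised reads in PH80_HC, 245, 289 and 429 in PH80_G+H, 366, 149 and 294 in PH80, and 322, 177 and 145 in PH70. All 4 groups overlapped their neighbours. The PH80 against PH70 difference was 0.32 (interval -0.52 to 1.15, limma adjusted p = 0.673), and the widest difference was that of PH80_HC against PH80_G+H, at -0.97 (interval -1.81 to -0.13, adjusted p = 0.305).

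Per3 (chr4:151003652-151044665, minus strand) had 96.4, 481 and 67.5 normalised reads in PH80_HC, 131, 102 and 188 in PH80_G+H, 68.9, 59.1 and 71.9 in PH80, and 396, 135 and 91.4 in PH70. All PH80 values were below those of PH70 and PH80_G+H, yet 1 high library each in PH80_HC and PH70 widened the spread, and PH80 against PH70 did not pass (log2 -1.34 ± 0.62, interval -2.68 to -0.01, limma adjusted p = 0.231). The highest Per3 library was 7.13 times the lowest in PH80_HC and 4.33 times in PH70, but 1.22 times in PH80.

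**Figure D3:**
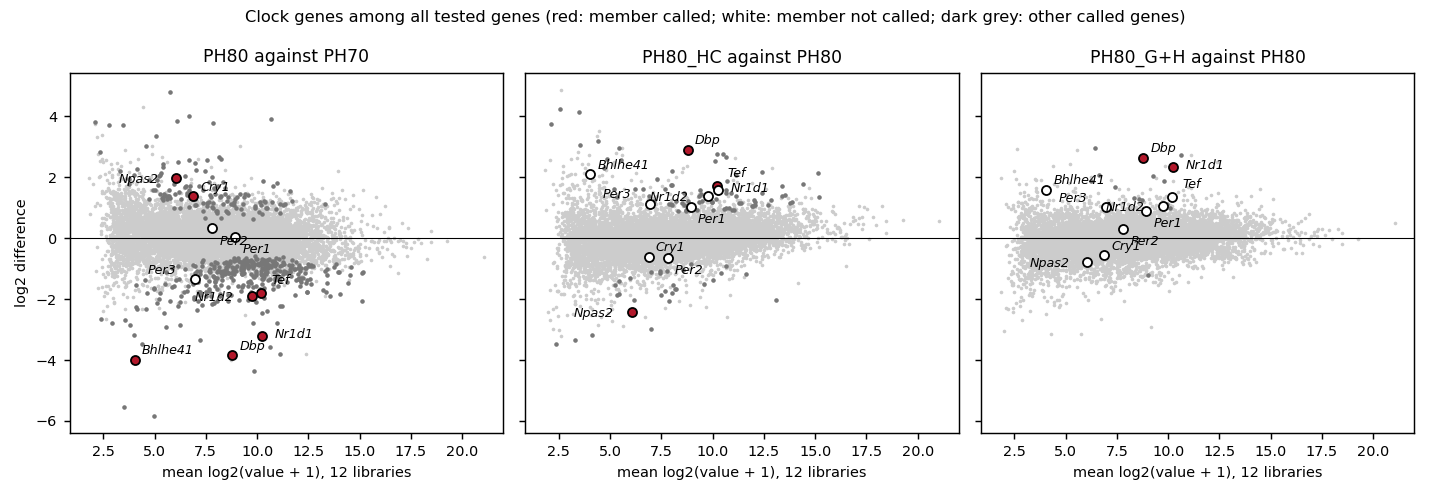
Log2 difference against mean log2(value + 1) over the 12 libraries for all 12570 tested genes in PH80 against PH70, PH80_HC against PH80 and PH80_G+H against PH80, with the 10 clock genes as large points, red where called. Dbp, Nr1d1 and Bhlhe41 stand between -3.22 and -3.99 in PH80 against PH70, and Dbp at 2.90 and 2.64 in the arms against PH80.

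No clock gene was called when the arms were set against PH70 or each other. Against PH70, limma called 0 of the 10 in PH80_HC (background 0.231%), where 5 had an unadjusted p under 0.05, and edgeR called 0 and DESeq2 1, Nr1d1. In PH80_G+H against PH70 it called 0 (background 0.00796%), where 7 had an unadjusted p under 0.05, and edgeR called 0 and DESeq2 1, Bhlhe41. In PH80_HC against PH80_G+H it called 0 (background 0.255%), where 2 had an unadjusted p under 0.05, and edgeR called 0 and DESeq2 1, Npas2. These backgrounds count genes past an adjusted p of 0.05. An unadjusted p under 0.05 was reached by 1984, 750 and 1710 of the 12570 tested genes in these comparisons, in that order. Libraries did not overlap for 4 of the 10 in PH80_HC against PH70 (17.0% of all tested genes), 6 in PH80_G+H against PH70 (13.5%) and 2 in PH80_HC against PH80_G+H (17.1%). A p past the threshold only against PH80 does not show that the arms match PH70: PH80_HC stayed below PH70 in all 3 libraries for Nr1d1 and Bhlhe41, and PH80_G+H for Dbp, Nr1d1, Nr1d2 and Bhlhe41.

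Since the size factor cancels in a ratio within 1 library, transcripts of opposite phase were also divided. A library's trend with transcript length does not cancel, as the longest transcript has 1837 bases for Dbp and 4236 for Npas2. Dbp over Npas2 was 16.3, 31.5 and 19.7 in PH80_HC, 4.97, 3.97 and 9.52 in PH80_G+H, 0.527, 0.354 and 0.780 in PH80, and 61.2, 52.4 and 8.85 in PH70. Only the PH80 libraries had a ratio under 1, in reads not corrected for transcript length, and PH70 replicate 3 lay far below the other PH70 libraries. Nr1d1 over Cry1 was 10.1, 9.02 and 7.67 in PH80_HC, 15.1, 11.8 and 16.4 in PH80_G+H, 0.783, 2.66 and 3.48 in PH80, and 56.4, 36.0 and 53.0 in PH70, with no overlap between any 2 groups. These pairs were picked with the values above known, so the ratios are a description.

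**Figure D4:**
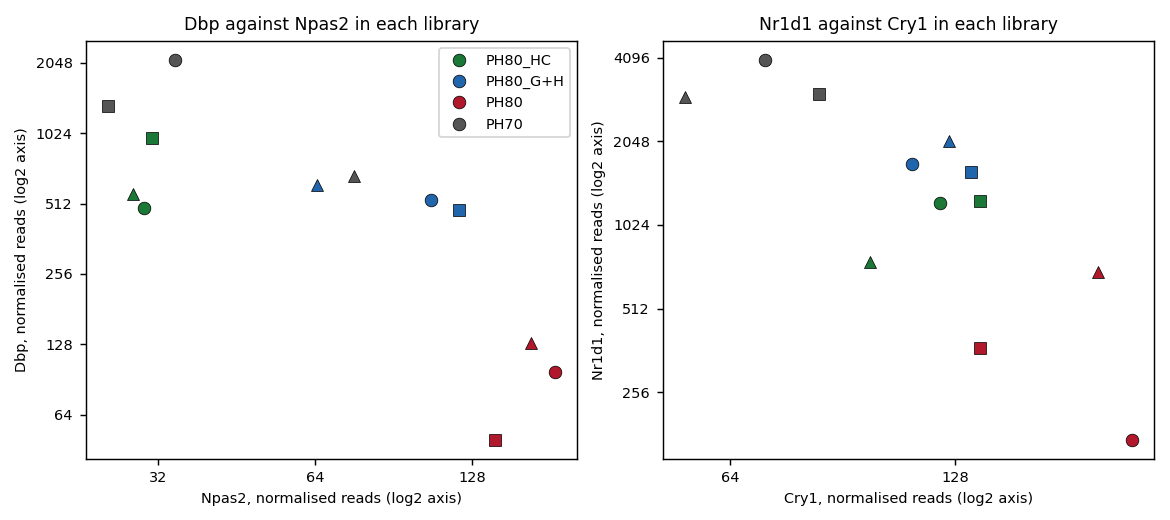
Normalised value of Dbp against Npas2 and of Nr1d1 against Cry1, 1 point per library, on log axes, by group (n = 3 each). The PH80 points are lowest on the vertical axis (Dbp or Nr1d1) in both panels. Their ratios, which are not drawn, were 0.354 to 0.780 for Dbp over Npas2 and 0.783 to 3.48 for Nr1d1 over Cry1.

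Per kb of longest transcript, the order of the 10 differed among all 4 groups, with Nr1d1 first in each. In PH80, Nr1d1 led at 151, followed by Tef (115), Nr1d2 (93.2), Per1 (84.9), Cry1 (61.5), Dbp (50.1), Per2 (46.2), Npas2 (38.6), Per3 (11.1) and Bhlhe41 (0.633). Dbp was the sixth of the 10 there. It was the second in PH70 (748, after Nr1d1 at 1226) and the third in PH80_HC (368, after Nr1d1 at 396 and Tef at 390). Given the spread of Dbp and Tef within groups, their order in PH80_HC and in PH80_G+H (295 for each) is not resolved.

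Libraries of 1 group differed widely in clock transcripts. The pooled within-group SD on the log2 scale was 0.956 for Per3, 0.791 for Bhlhe41, 0.656 for Per1 and 0.609 for Dbp, against a median of 0.316 over all tested genes, and Cry1 was the single one of the 10 below that median (0.268). PH80_HC replicate 2 was highest of its group for 9 of the 10 genes, all but Per1, and PH80_HC replicate 3 was lowest for 7. PH70 replicate 3 was lowest of its group for 8 genes, and there Npas2 was highest. That library is also the shallowest (9.72 M reads) and the one whose values rose most with transcript length in PH70 (log2 slope 0.222 per doubling). The slope was -0.277 in PH80_HC replicate 3 and -0.187 in PH80 replicate 1. The part of these slopes in the clock differences was not tested beyond refitting. Without the steepest library of each group, an alternative chosen after seeing the data, 6 of the 10 were still called in PH80 against PH70.

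**Figure D5:**
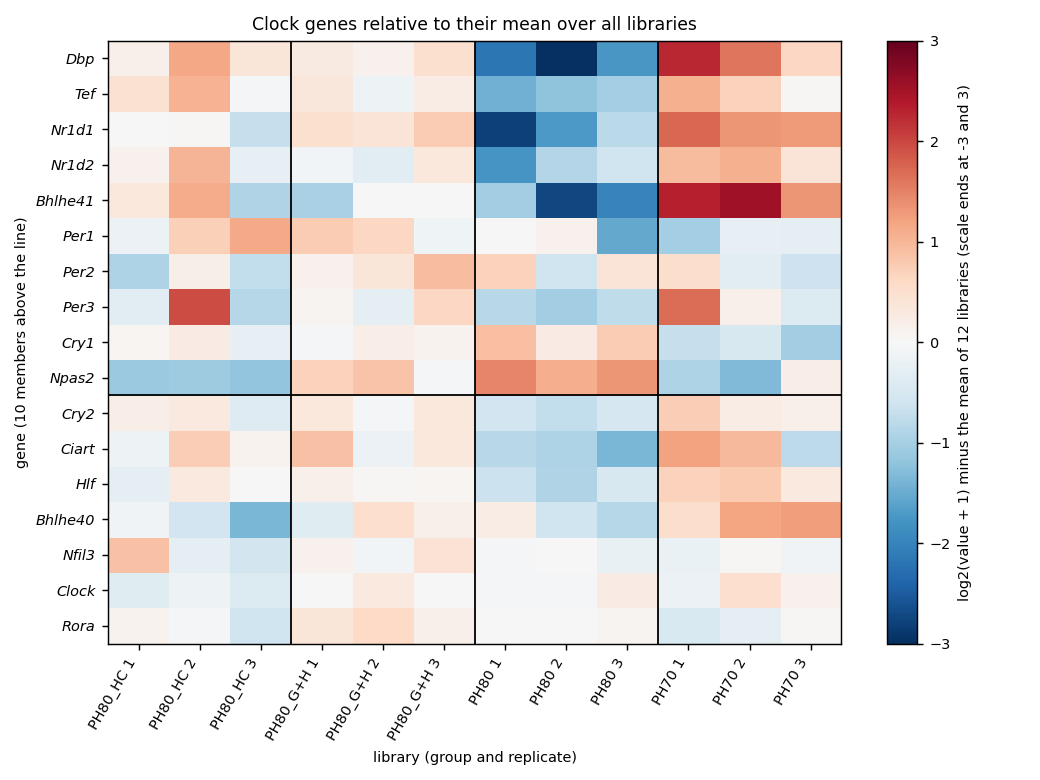
Log2(value + 1) of each of the 10 clock genes and 7 other core clock genes minus its mean over the 12 libraries, 1 column per library in the order PH80_HC, PH80_G+H, PH80 and PH70. The 3 PH80 columns are low for Dbp, Tef, Nr1d1, Nr1d2, Bhlhe41 and Hlf and high for Npas2 and Cry1, while Clock and Nfil3 differ by -0.09 and 0.00 between PH80 and PH70.

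Of 8 other core clock genes, 7 were in the table, and Arntl was not analysed here. In PH80 against PH70, limma called 3 of the 7 lower (Cry2, Bhlhe40 and Hlf) and 0 higher, with a median log2 difference of -0.97. Over all tested genes, 2.73% were called lower and 1.09% higher in that comparison. Of the 7, edgeR called 2 and DESeq2 4. Ciart, an E-box-driven repressor, was 24.3 ± 4.95 in PH80 and 82.7 ± 47.4 in PH70 and did not pass (log2 -1.51, limma adjusted p = 0.0902). Clock (log2 -0.09, limma adjusted p = 0.816), the ROR element activator Rora (0.26, 0.483) and the D-box repressor Nfil3 (0.00, 0.998) were not called. Limma called 0 of the 7 in PH80_HC against PH80 and in PH80_G+H against PH80, where 3 each had an unadjusted p under 0.05, and edgeR called 0 and DESeq2 1 in each. Over all 12570 tested genes, 1792 and 1316 had an unadjusted p under 0.05 there. Clock modifiers, the kinases and ubiquitin ligase subunits that set the life of PER and CRY proteins with Sirt1 and Timeless, had 0 of 8 called in PH80 against PH70 by limma, edgeR and DESeq2, with 1 at an unadjusted p under 0.05. Over all tested genes, 2693 of 12570 were under that unadjusted p. Of 12 genes of the liver known as clock-driven outputs, 1 was called lower in PH80 against PH70 and 0 higher. By fit, 7 of the 12 were higher and 5 lower, with a median log2 difference of 0.13 (lowest -1.35, highest 1.06). The called gene was Gys2, the liver glycogen synthase, with 955 ± 230 in PH80 and 2410 ± 372 in PH70 (log2 -1.35, limma adjusted p = 0.00550). In PH80_HC against PH80, Gys2 missed the threshold (log2 0.93, limma adjusted p = 0.0558). In that comparison limma and edgeR called 0 of the 12 and DESeq2 4, while 6 had an unadjusted p under 0.05.

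Feeding state and glucocorticoid also set the phase and level of liver clock transcripts, so lists of genes that answer to them are given beside the clock genes. Of 10 glucocorticoid-responsive genes, which include Per1, 2 were called lower in PH80 against PH70 and 0 higher. Over all tested genes, 2.73% were called lower and 1.09% higher in that comparison. By fit, 5 of the 10 were higher and 5 lower, from -2.03 to 1.23, and the list's median log2 difference was -0.02. Fkbp5 was among those fitted higher (log2 0.65, limma adjusted p = 0.228). Klf9, a transcription factor gene that is also clock-driven, averaged 480 ± 92.0 in PH80_HC, 797 ± 223 in PH80_G+H, 280 ± 134 in PH80 and 1067 ± 299 in PH70, and fell in PH80 against PH70 (log2 -2.03, limma adjusted p = 0.0108). Dusp1, a MAP kinase phosphatase gene, averaged 437 ± 57.6 in PH80_HC, 1057 ± 272 in PH80_G+H, 438 ± 183 in PH80 and 1737 ± 523 in PH70, and fell in PH80 (log2 -2.02, limma adjusted p = 0.00446) and PH80_HC (-1.96, 0.0260) against PH70. In PH80_G+H all Dusp1 values were above those of PH80, which did not pass (log2 1.31, limma adjusted p = 0.128). Of 7 genes induced by fasting, 6 were fitted lower and 1 higher in PH80 against PH70, and 1 was called, Cpt1a, which was lower. Cpt1a, of fatty acid import into mitochondria, averaged 4344 ± 1251 in PH80_HC, 4245 ± 343 in PH80_G+H, 2643 ± 758 in PH80 and 5817 ± 354 in PH70 (limma adjusted p = 0.0227 in PH80 against PH70). Angptl4, which inhibits lipoprotein lipase, rose in PH80_HC against PH80 (3220 ± 1499 and 886 ± 363, log2 1.87, limma adjusted p = 0.0393). Of 6 genes induced by feeding, 4 were fitted higher and 2 lower in PH80 against PH70, and 0 were called lower. Pnpla3, a lipid droplet hydrolase gene, was called higher there (260 ± 121 and 43.2 ± 20.3, log2 2.56, limma adjusted p = 0.0138). Whether food intake or glucocorticoid had a part in the clock differences was not tested.

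The summed value of 10 neutrophil markers was 522 to 2240 in PH80_HC, 333 to 2266 in PH80_G+H, 264 to 5715 in PH80 and 102 to 339 in PH70, and Ly6g, Mpo, Ngp, Camp and Ltf, 5 of the 10, were at 0 in at least 1 library. In PH80 the sums were 544, 5715 and 264 in replicates 1, 2 and 3, so the high end is replicate 2 alone, which also had the lowest PH80 value for 6 of the 10 clock genes. Without PH80 replicate 2, the same 7 clock genes were called in PH80 against PH70 and the same 3 in PH80_HC against PH80, but 0 in PH80_G+H against PH80 by limma. In PH80 against PH70, limma and edgeR called 0 of the 8 tested and DESeq2 3, and 3 had an unadjusted p under 0.05, against 2693 of all 12570 tested genes. The sum over 8 macrophage markers was 18985 to 28916 in PH80_HC, 11181 to 16121 in PH80_G+H, 11408 to 27456 in PH80 (the highest again replicate 2) and 9390 to 12494 in PH70. The sum over 5 T and NK cell markers was 120 to 371 in PH80_HC, 29.7 to 61.2 in PH80_G+H, 34.4 to 166 in PH80 and 31.5 to 42.4 in PH70. The part of these cells in the clock differences was not tested.

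Across the 12 libraries, the genes whose log2 values followed Dbp most closely among 10564 ranked genes with a mean of at least 50 were Zcchc24 (Pearson r 0.967), Slc25a42 (0.963), Gys2 (0.960), Hlf (0.956) and Upp2 (0.956). Upp2, a uridine phosphorylase gene, averaged 2327 in PH80_HC, 2412 in PH80_G+H, 354 in PH80 and 4398 in PH70. The most opposed were Spdef (-0.965), Glipr2 (-0.944), Prelid2 (-0.936), Cops8 (-0.918) and Cdc42se1 (-0.913). Spdef, an ETS factor gene, averaged 32.1 in PH80_HC, 43.9 in PH80_G+H, 113 in PH80 and 23.0 in PH70. Among the 10 clock genes, r with Dbp was 0.942 for Tef, 0.889 for Bhlhe41, 0.886 for Nr1d2, 0.872 for Nr1d1, 0.727 for Per3, 0.06 for Per1, 0.02 for Per2, -0.697 for Cry1 and -0.778 for Npas2. These are descriptions over 12 points that share the group structure and each library's depth and scaling.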

How the data were processed

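Poly(A) RNA of 12 mouse liver libraries was measured by stranded RNA sequencing (TruSeq, from 100 ng of total RNA, per the labels' protocols). Per the submitters' processing notes, DESeq2 was used and the genome build was GRCm38 (mm10); the sources used here do not name the aligner, counter or annotation. The deposited values are a normalised signal, that is, counts scaled by the size factor of each library; in each library 100% of values were whole multiples of 1 read within 0.01.

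Genes that reached 10 in 3 or more libraries were tested on log2(value + 1), a scale that understates the change of low genes, with limma 3.58.1 in R 4.3.3 (intensity trend, group as the single factor, all 12 libraries), two-sided, with Benjamini-Hochberg adjustment and a threshold of 0.05. In addition, edgeR 4.0.16 (quasi-likelihood) and DESeq2 1.42.0 were run on the recovered reads. Other alternatives were equal totals, pseudocounts of 0.5 and 5, no filter or a minimum of 50, no intensity trend, only the 2 groups compared, a replicate block, removal of length and GC trends, and leaving out each library. The scripts were tested on simulated data. Described are all 10 genes, the other core clock genes, the called genes of the other lists, and the 5 genes most like and most opposed to Dbp. Results for 2 genes of the lists are not reported here. The members and lists were chosen with earlier results of these data known. Libraries held 9.72 M to 44.5 M reads. The 3 libraries of each group limit the precision, and so do read numbers for Bhlhe41 and Npas2.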

Additional observations from a re-analysis of the deposited data

How the results depend on the processing

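Of the 12 called clock gene differences, 5 stayed called in every alternative that tested them (up to 24 each) and 0 changed sign. Of the 48 others, 7 were called in some alternative and 12 changed sign in some. In PH80 against PH70, leaving out 1 library at a time gave 5 to 7 of the 10 genes called. In PH80_HC against PH80 it gave 2 to 4 (the 4 include Nr1d1, gained without PH80 replicate 3), with 6 by DESeq2 and 1 (Npas2) when only the 2 groups were fitted. In PH80_G+H against PH80 it gave 0 to 2, with 0 without PH70 replicate 2, PH80 replicate 1 or 2, or any PH80_G+H library, 1 (Dbp) by edgeR, 3 (Dbp, Tef and Nr1d1) by DESeq2, and 0 with equal totals, without the intensity trend or with the replicate block. In PH80_HC against PH70 the count was 1 (Nr1d1) by DESeq2 and with only the 2 groups, and 0 to 1 leaving out 1 library. It was 1 by DESeq2 in PH80_G+H against PH70 and in PH80_HC against PH80_G+H, and 0 to 1 leaving out 1 library in PH80_HC against PH80_G+H. Among the 4 groups it was 4 with equal totals and 3 to 7 leaving out 1 library. The cause was not tested in any of these.

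Equal totals moved the median of all genes by 0.12 in PH80 against PH70, -0.33 in PH80_HC against PH80, -0.10 in PH80_G+H against PH80, -0.21 in PH80_HC against PH70 and -0.23 in PH80_HC against PH80_G+H. Replicate numbers did not pair the libraries: same-numbered libraries of different groups had a mean correlation of deviations of -0.0128 over 18 pairs, and 1 of 12 libraries correlated best with its own number.

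Uncalled log2 differences that changed sign are these. Leaving out 1 library, Per1 ranged from -0.25 to 0.58 and, without the steepest library of each group, was -0.0631 in PH80 against PH70, where Per2 was -0.19 without those libraries. Per2 ranged from -0.0706 to 0.58 in PH80_G+H against PH80. In PH80_HC against PH70, leaving out 1 library, Tef ranged from -0.39 to 0.15, Per3 from -1.07 to 0.40 (0.0374 by edgeR, 0.0491 by DESeq2) and Npas2 from -0.76 to 0.0053 (0.0363 without the steepest libraries). Per3 ranged from -0.76 to 0.29 in PH80_G+H against PH70. In PH80_HC against PH80_G+H, Dbp ranged from -0.0399 to 0.46, Nr1d2 from -0.0403 to 0.59, Per1 from -0.14 to 0.51 (-0.0884 with equal totals, -0.0374 without the steepest libraries), Per3 from -0.75 to 0.66 (-0.12 with equal totals) and Cry1 from -0.17 to 0.0707 (0.13 without the steepest libraries).

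The number of all genes called also moved. In PH80 against PH70, 480 were called, with 952 by DESeq2, 237 with equal totals, 293 with the replicate block, 303 without the steepest libraries and 61 to 725 leaving out 1 library. In PH80_HC against PH80, 112 were called, with 508 by DESeq2, 2 with only the 2 groups and 28 to 125 leaving out 1 library. In PH80_G+H against PH80, 15 were called, with 203 by DESeq2 and 0 to 26 leaving out 1 library. In PH80_HC against PH70, 29 were called, with 8 to 253 over the fits on all libraries or without the steepest ones and 1 to 55 leaving out 1 library. The corresponding counts were 1, 0 to 66 and 0 to 6 in PH80_G+H against PH70, 32, 8 to 303 and 2 to 59 in PH80_HC against PH80_G+H, and 232, 106 to 1226 and 27 to 279 among the 4 groups.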
